A study of Mus musculus with 48 samples.

Results

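Transcript levels of 7 carbonic anhydrase genes (Car2, Car3, Car4, Car8, Car12, Car14 and Car15) were measured in whole mouse kidney. Every probe set assigned to 1 of these symbols on the paired Affymetrix 430A and 430B chips was taken, whatever its values, which gave 15 probe sets for the 7 genes among 45137 probe sets for 18193 genes. Of the 15 probe sets, 12 had a signal above the array median on at least 3 of 24 arrays and were tested among 28044 such probe sets of both chips; each of the 7 genes had at least 1 of them.

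The animals were Hyp mice or their normal littermates, 10 weeks old, fed a control diet or a low phosphorus diet for 3 days with deionized water. The Hyp allele disrupts Phex, a gene of the X chromosome, and is a model of X-linked hypophosphatemia. The Hyp males were hemizygous (Hyp/Y) and the Hyp females heterozygous (Hyp/+), so Hyp mice of both sexes carried 1 mutant allele, and the Hyp females also had a normal one. The 8 groups (normal or Hyp, male or female, control or low phosphate) had 3 samples each. The RNA of 3 mice was combined in each sample, called a pool below, which made 24 pools from 72 mice. Values of single mice were therefore not measured, and p-values refer to the spread between pools.

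Carbonic anhydrases are zinc enzymes that interconvert carbon dioxide and bicarbonate with release or uptake of a proton. In the kidney they serve bicarbonate reclamation in the proximal tubule and acid secretion in the collecting duct. Car2 is the main cytosolic enzyme of the kidney, and Car3 is a cytosolic isoform of low activity that is best known from fat, skeletal muscle and liver. Car4 and Car15 are held on the outer cell surface by a lipid anchor, while Car12 and Car14 span the membrane with their catalytic domain outside the cell. Car8 is a related protein that has lost catalytic activity. In the RefSeq gene order of GRCm38.p6, Car3 lies on chromosome 3 between Car1 and Car2. Car14 lies elsewhere on chromosome 3, next to Aph1a and Anp32e. Car8 lies on chromosome 4, Car12 on chromosome 9, Car4 on chromosome 11 and Car15 on chromosome 16.

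The promoters of Car4 and Car15 are shown because the transcripts of these lipid-anchored enzymes changed with the diet in opposite directions. Each stretch holds the 250 bases before the annotated start, 5′ to 3′ on the gene's strand, from RefSeq (build GRCm38.p6). Car4 is at chr11:84957504-84957753 on the plus strand and Car15 at chr16:17838187-17838436 on the minus strand. Each stretch ends at the base before the gene's start, and none of the motifs named below had a match in them, so no letters are in capitals.
Car4: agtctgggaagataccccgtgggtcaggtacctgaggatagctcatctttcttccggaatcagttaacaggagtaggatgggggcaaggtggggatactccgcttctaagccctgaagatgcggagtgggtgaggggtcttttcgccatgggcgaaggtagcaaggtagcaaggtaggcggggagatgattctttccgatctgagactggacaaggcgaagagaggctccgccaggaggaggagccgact
Car15: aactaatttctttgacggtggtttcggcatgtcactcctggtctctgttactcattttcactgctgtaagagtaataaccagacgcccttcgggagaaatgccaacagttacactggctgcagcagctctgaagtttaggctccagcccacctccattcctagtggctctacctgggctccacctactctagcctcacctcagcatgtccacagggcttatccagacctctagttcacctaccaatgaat
The Car4 stretch was 56.4% G or C with 11 CpG dinucleotides, and the Car15 stretch held 4 CpG dinucleotides. Motifs were searched as exact letters on both strands in these stretches and in those of Car12 and Car14, the other members with an entry among 32851 promoters. The Car12 stretch (chr9:66713436-66713685, plus strand) and the Car14 stretch (chr3:95904686-95904935, minus strand) lie inside the annotated genes. Another transcript of each gene therefore begins further upstream. The steroid receptor half-site AGAACA occurred once in the 4 stretches, on the gene's own strand in that of Car14, beginning 226 bases before the start. It is present in 16.1% of all promoters of this length. The TATA box TATAAA (12.4% of all promoters), the HNF1 half-site GTTAAT (6.4%), the nuclear receptor half-site AGGTCA (14.0%) and the E-box CACGTG (6.0%) had no exact match in the 4 stretches. A match is a description of the letters only.

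The value of a probe set is a linear hybridization signal, tested as log2 with limma's moderated test. A log2 difference of 1 is a doubling, and a call required an adjusted p below 0.05 over all 28044 tested features. The number of arrays limits the precision. Labelled sex matched the arrays, with Xist at 62.1 to 180.3 in the 12 male pools and 1457.9 to 2011.4 in the 12 female pools. The tissue label also matched, as all 9 listed convoluted proximal tubule genes were measured, with a summed signal of 40932.2 to 55343.3 over the 24 pools. Levels of different probe sets are not compared, since each binds with its own strength. In bulk kidney RNA, a lower signal from fewer cells of a type and one from less RNA per cell cannot be told apart.

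**Figure D1:**
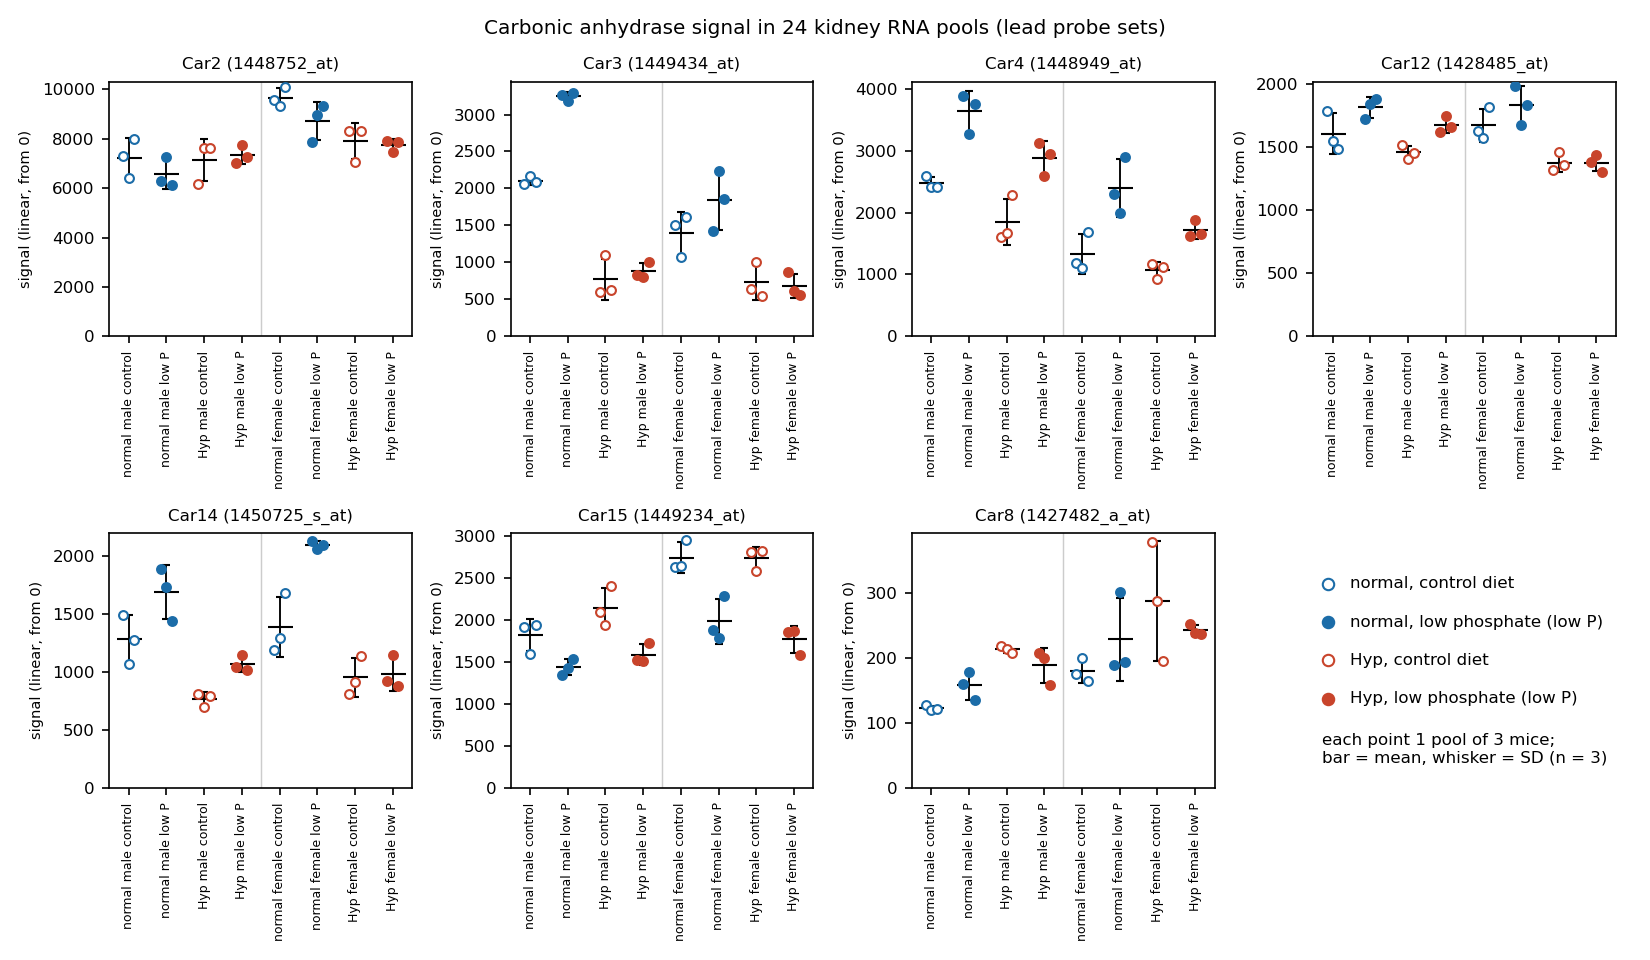
Signal of each gene's leading probe set in every pool (points, linear axis) by group, with group means and SD (n = 3). The groups are normal or Hyp, male or female, on control or low phosphate diet, 3 pools each. Car3 and Car14 lay lower in the Hyp groups, Car4 rose and Car15 fell on the low phosphate diet, and Car2 showed small steps between groups.

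The question of the genotype comparison was which transcripts differ in the Hyp kidney over both diets and sexes. Of the 12 tested probe sets, 6 were called, from 5 genes, against 1.63% of all features. The 7 genes were chosen with earlier results of these data known. The shares called for genotype, diet and sex therefore describe these genes and carry no test of the family. None of the 5 other measured carbonic anhydrases was called for genotype, and among them Car9 and Car11 exceeded the array median on only 11 and 8 arrays. Car3, Car4, Car12 and Car14 fell in Hyp mice, Car8 rose, and Car2 and Car15 did not pass the test. The median log2 difference over the 7 leading probe sets was -0.23, beside -0.00 over all features. The called members included the cytosolic Car3, the lipid-anchored Car4 and both membrane-spanning enzymes.

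Car3 had the largest genotype difference of the 7 genes. In normal males on the control diet its leading probe set 1449434_at read 2054.4, 2162.5 and 2086.5, and in Hyp males on that diet 598.5, 1094.2 and 624.2. In normal males on low phosphate it read 3270.7, 3183.4 and 3291.2, against 821.8, 797.0 and 1011.1 in Hyp males. In females on the control diet, normal pools read 1506.9, 1065.9 and 1613.8 and Hyp pools 641.5, 1000.3 and 540.9. On low phosphate, normal females read 1428.5, 2233.5 and 1850.5 and Hyp females 869.8, 611.3 and 562.0. Within each of the 4 combinations of sex and diet, every Hyp pool lay below every normal pool. Over the 12 pools of each genotype the ranges overlapped slightly, at 540.9 to 1094.2 in Hyp and 1065.9 to 3291.2 in normal mice. The difference was -1.45 ± 0.12 (SE; 95% interval -1.70 to -1.20; adjusted p = 2.5e-07), or 2.73-fold lower in Hyp mice. A second probe set, 1460256_at, fell by 1.30 ± 0.14 (adjusted p = 5.0e-06), with medians of 275.3 in Hyp and 730.05 in normal pools. Probe set 1430584_s_at of the other chip was above the array median on 11 arrays, 8 of them normal and 3 Hyp, and its difference of -0.85 ± 0.36 did not pass (adjusted p = 0.38). The remaining one, 1453588_at, was above it on 1 array and was not tested.

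Markers of the tissues in which Car3 is abundant were measured beside it. The 3 measured of 8 fat genes did not pass between genotypes (Adipoq 0.17 ± 0.16, Fabp4 0.13 ± 0.10, Retn -0.10 ± 0.09), and Cidec, Lep and Acvr1c were never above the array median. The summed signal of the 6 fat genes on the chips, in which Fabp4 weighs most, was 1499.7 to 3093.3 in normal and 1817.1 to 2836.7 in Hyp pools. Of the 8 skeletal muscle genes, 6 (Acta1, Myh1, Tnnt3, Mb, Mylpf and Tnnc2) were never above the median, and all 8 together summed to 304.9 to 460.8 in normal and 305.1 to 514.3 in Hyp pools. The 3 measured of 8 liver genes did not pass either (Fgg 0.54 ± 0.15, adjusted p = 0.094, Alb 0.28 ± 0.16, Apoa2 -0.13 ± 0.12). The 7 liver genes on the chips had a summed signal of 815.3 to 1444.2 in normal and 838.4 to 2536.4 in Hyp pools, and Apoa1, Fgb, Tat and Cps1 were never above the median. The fat, muscle and liver sums of the genotypes overlapped. The part of these tissues in the Car3 difference was not tested.

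Car14, a membrane-spanning enzyme of the proximal tubule, had the next largest fall. On the control diet, probe set 1450725_s_at read 1493.1, 1069.6 and 1278.6 in normal males and 806.5, 692.5 and 793.0 in Hyp males. In females on that diet it read 1190.6, 1293.9 and 1684.0 in normal and 810.8, 912.0 and 1140.7 in Hyp pools. As with Car3, the genotypes did not overlap on the control diet in either sex. On low phosphate, normal males read 1890.1, 1736.0 and 1434.7 and Hyp males 1043.5, 1149.5 and 1018.8. Normal females on that diet read 2126.3, 2058.3 and 2091.9 and Hyp females 919.4, 1147.9 and 876.5. The genotypes were again apart in both sexes, and the normal females on low phosphate lay above every other pool. The difference was -0.76 ± 0.08 (95% interval -0.92 to -0.59; adjusted p = 5.2e-06), or 1.69-fold lower in Hyp mice.

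Car12, a membrane-spanning enzyme known from the basolateral membrane of tubule cells, fell less. Probe set 1428485_at had a lowest, median and highest signal of 1304.8, 1447.8 and 1745.8 among Hyp pools, against 1487.1, 1755.3 and 1984.4 among normal ones. The ranges overlapped, and the genotypes were apart in 2 of the 4 combinations of sex and diet. The difference was -0.23 ± 0.05 (adjusted p = 0.013; 1.18-fold lower), and the call was lost when each array was centred on its median (adjusted p = 0.074). Probe set 1447762_x_at on the other chip gave -0.21 ± 0.14 and did not pass, and 1446517_at was above the median on 2 arrays and was not tested.

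Car4, a lipid-anchored enzyme of the proximal tubule brush border, also fell in Hyp mice. Probe set 1448949_at had a lowest, median and highest signal of 923.8, 1660.95 and 3119.5 among Hyp pools, against 1107.6, 2410.35 and 3890.6 among normal ones, and the genotypes were apart in 3 of the 4 combinations. The difference was -0.38 ± 0.08 (95% interval -0.56 to -0.20; adjusted p = 0.020; 1.30-fold lower). The call was lost with median centring (adjusted p = 0.11) and with no filter on low signals (adjusted p = 0.055). The other probe set, 1418094_s_at, gave -0.40 ± 0.12 and did not pass (adjusted p = 0.094).

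Car8 was the only member whose transcript rose in Hyp mice. In males on the control diet, probe set 1427482_a_at read 127.2, 119.4 and 121.9 in normal and 219.4, 213.7 and 208.6 in Hyp pools. In females on that diet it read 174.8, 200.1 and 165.1 in normal and 379.9, 288.6 and 195.9 in Hyp pools. The genotypes were apart in males on the control diet and overlapped in females, where 1 Hyp pool lay below the highest normal pool. On low phosphate, males read 160.5, 178.3 and 134.8 in normal and 208.7, 199.7 and 158.2 in Hyp pools, and females 189.8, 302.7 and 194.0 in normal and 252.9, 238.8 and 238.0 in Hyp pools. Both sexes overlapped on that diet. The difference was 0.45 ± 0.10 (95% interval 0.25 to 0.66; adjusted p = 0.015; 1.37-fold higher). This signal lay near the array medians of 164.6 to 211.1 and exceeded them on 14 arrays, 11 Hyp and 3 normal, so the probe set passed the filter mainly through Hyp pools. The other probe sets of Car8 were lower in signal: 1457904_at, above the median on 5 arrays, gave 0.27 ± 0.23 (adjusted p = 0.80), and 1424958_at never exceeded it.

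Car2 and Car15 did not pass between genotypes. The cytosolic Car2 gave -0.08 ± 0.06 (95% interval -0.20 to 0.04; adjusted p = 0.73), with medians of 7632.35 in Hyp and 7930.1 in normal pools. The lipid-anchored Car15 gave 0.06 ± 0.06 (95% interval -0.07 to 0.18; adjusted p = 0.86), with medians of 1901.25 in Hyp and 1896.85 in normal pools.

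**Figure D2:**
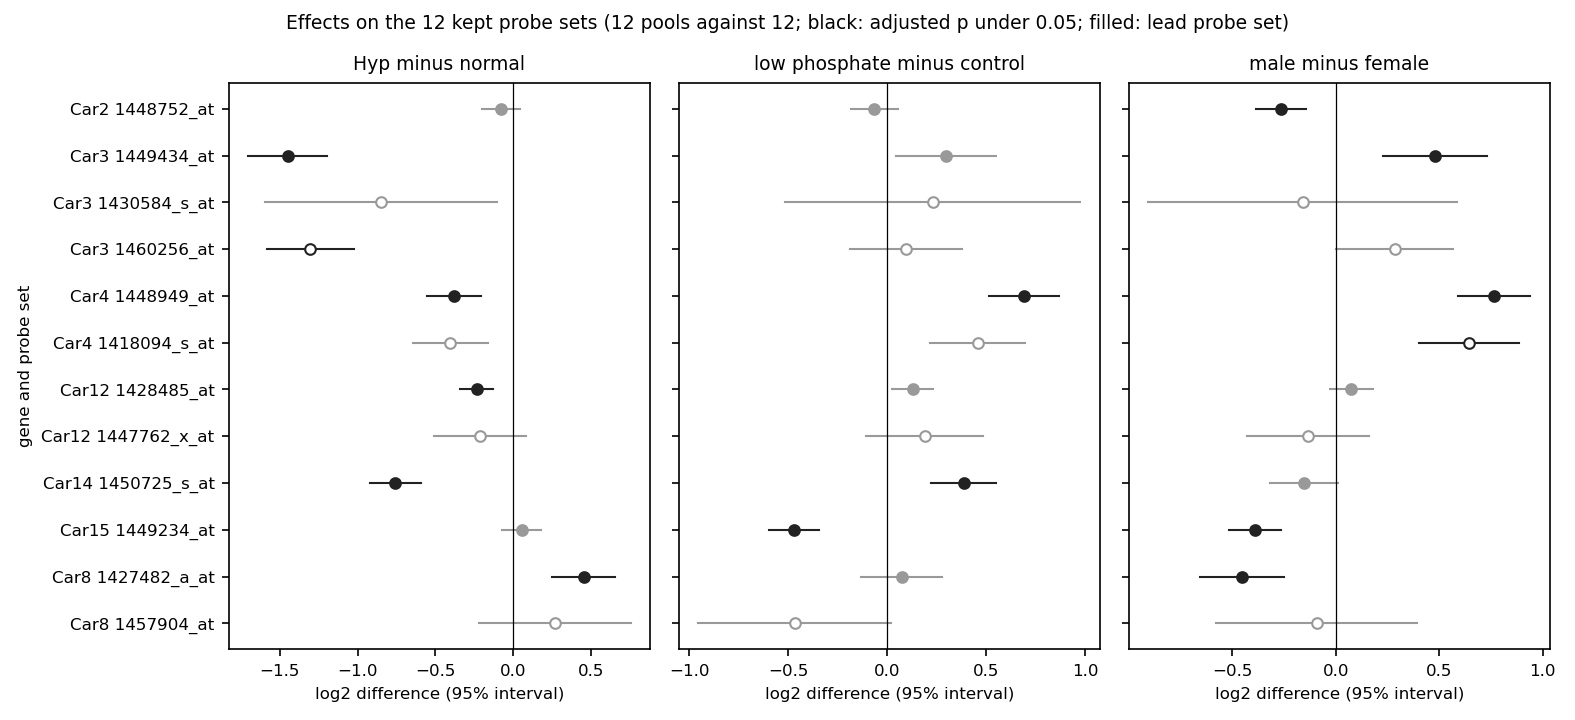
Log2 differences of the 12 tested probe sets for genotype (Hyp minus normal), diet (low phosphate minus control) and sex (male minus female), with 95% intervals as bars over 12 pools on each side. The Car3 probe sets have the lowest genotype values, Car4 lies above 0 for diet and sex, and Car15 lies below 0 for both.

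The diet comparison asked which transcripts respond to 3 days of low phosphorus over both genotypes and sexes. Of the 12 probe sets, 3 were called, from 3 genes, against 0.663% of all features. As for genotype, none of the 5 other measured carbonic anhydrases was called, with Car9 and Car11 near the array median. The membrane-bound Car4 and Car14 rose and Car15 fell, while the cytosolic Car2 and Car3, the membrane-spanning Car12 and the related Car8 did not pass. The median over the 7 leading probe sets was 0.13, beside 0.01 over all features.

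Car4 rose the most. In normal males it read 2589.8, 2410.1 and 2410.6 on the control diet and 3890.6, 3265.1 and 3754.5 on low phosphate. In Hyp males the values were 1608.9, 1662.0 and 2276.4 on control and 3119.5, 2593.1 and 2948.1 on low phosphate. Each male pool on low phosphate thus lay above every male pool on the control diet, whatever its genotype. In normal females it read 1178.5, 1107.6 and 1691.5 on control and 2307.1, 1984.4 and 2897.1 on low phosphate. In Hyp females it read 1174.2, 923.8 and 1119.4 on control and 1617.8, 1885.9 and 1659.9 on low phosphate. The diets were apart in all 4 combinations of genotype and sex. The difference was 0.69 ± 0.08 (95% interval 0.51 to 0.87; adjusted p = 0.00011; 1.61-fold higher). Probe set 1418094_s_at moved the same way, by 0.46 ± 0.12 with the diets apart in 3 of 4 combinations, and did not pass (adjusted p = 0.082).

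Car15, anchored in the membrane in the same way as Car4, changed in the opposite direction. In normal males probe set 1449234_at read 1912.2, 1595.3 and 1942.1 on control and 1346.6, 1427.3 and 1533.6 on low phosphate. In Hyp males it read 2097.8, 1935.9 and 2403.2 on control and 1522.8, 1506.2 and 1730.4 on low phosphate. In normal females it read 2626.0, 2646.0 and 2955.7 on control and 1881.5, 1781.7 and 2284.1 on low phosphate. In these 3 combinations every pool on low phosphate was below every pool on control. In Hyp females the values fell from 2814.3, 2583.3 and 2817.4 to 1859.6, 1866.6 and 1577.7, again without overlap. The difference was -0.47 ± 0.06 (95% interval -0.60 to -0.34; adjusted p = 0.00019), or 1.38-fold lower on low phosphate.

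Car14 rose by 0.39 ± 0.08 on low phosphate (95% interval 0.22 to 0.55; adjusted p = 0.021; 1.31-fold). The diets were apart in normal females and in Hyp males, and overlapped in normal males and in Hyp females. The call was lost with no filter (adjusted p = 0.062) and with median centring (adjusted p = 0.064). Car4 and Car14 were therefore the members that both fell in Hyp mice and rose on low phosphate. Both comparisons use the same 24 pools.

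Car3, Car12, Car2 and Car8 did not pass for diet. Car3 gave 0.30 ± 0.12 (adjusted p = 0.43), and its diets were apart only in normal males, where the 3 low phosphate pools lay near 3248 on average (SD 57.2, n = 3) and the 3 control pools near 2101 (SD 55.5, n = 3). Its second probe set overlapped there, with 900.0, 759.1 and 973.8 on control and 986.1, 856.8 and 921.2 on low phosphate. Car12 gave 0.13 ± 0.05 (adjusted p = 0.40). Car2 gave -0.07 ± 0.06 (95% interval -0.19 to 0.05) and Car8 0.07 ± 0.10 (95% interval -0.13 to 0.27).

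Markers were set beside the diet results as well. Car4 is also known from capillary endothelium. None of the 7 endothelial genes passed for diet, and their summed signal was 3688.0 to 4902.3 on control and 3166.8 to 4802.9 on low phosphate. Of the 9 convoluted proximal tubule genes, Slc5a2 rose by 0.30 ± 0.06 and Slc22a6 fell by 0.23 ± 0.05 on low phosphate. The part of cell composition in the changes of Car4, Car14 and Car15 was not tested.

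**Figure D3:**
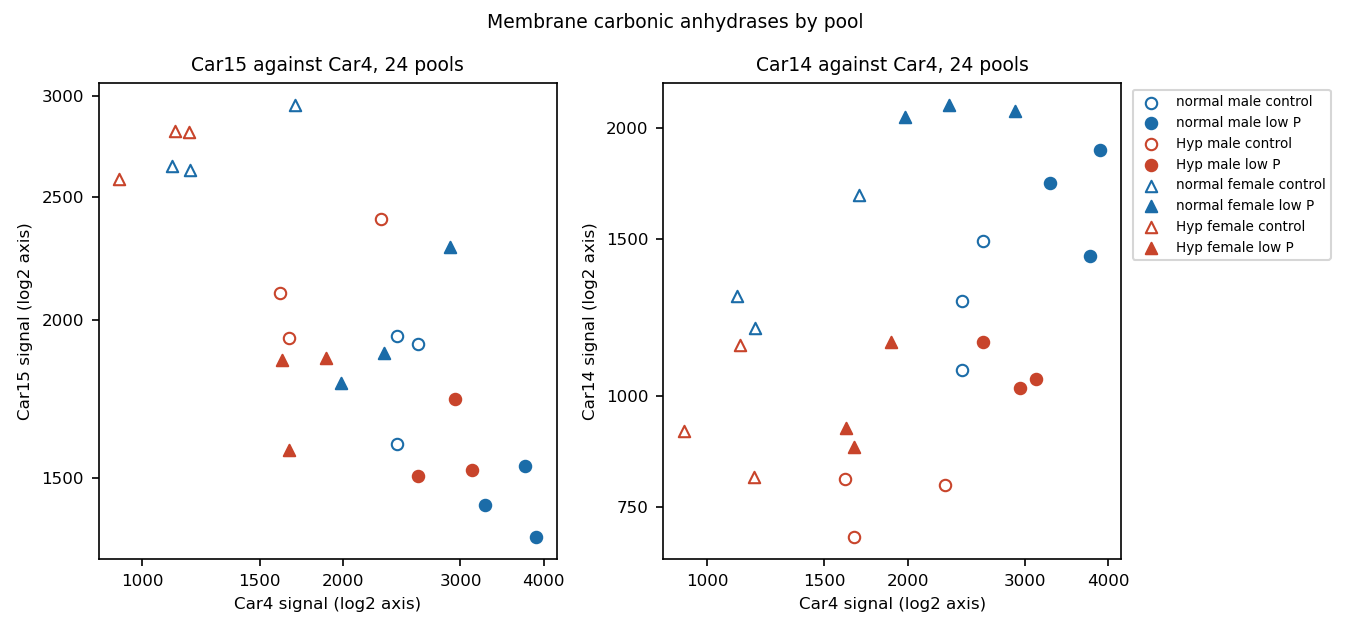
Signal of Car15 (left) and Car14 (right) against that of Car4 in the 24 pools, both axes log2; colour gives the genotype, shape the sex and filling the diet. High Car4 went with low Car15 over the pools, and Car14 was 692.5 to 1149.5 in the Hyp pools and 1069.6 to 2126.3 in the normal pools.

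Over the 24 pools the log2 signals of Car4 and Car15 had a Pearson r of -0.77, and those of Car12 and Car14 of 0.80. These values describe pools that share genotype, diet and sex, so they carry no test. Car4 and Car14 did not order the pools alike: Car4 was higher in males than in females, and Car14 did not pass between the sexes.

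The sex comparison asked which transcripts differ between male and female kidneys over both genotypes and diets. Of the 12 probe sets, 6 were called, from 5 genes, against 14.6% of all features, of which 1676 were higher and 2432 lower in males. Car4 and Car3 were higher in males, Car2, Car8 and Car15 were lower, and Car12 and Car14 did not pass. The median over the 7 leading probe sets was -0.15, beside -0.04 over all features.

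Car4 differed most between the sexes. Its lowest, median and highest signal was 1608.9, 2591.45 and 3890.6 in males and 923.8, 1638.85 and 2897.1 in females. The sexes were apart in all 4 combinations of genotype and diet. The difference was 0.76 ± 0.08 (adjusted p = 1.2e-06; 1.70-fold higher in males), and 1418094_s_at gave 0.64 ± 0.12 (adjusted p = 0.00048). Of the 7 endothelial markers, 3 were called lower in males (Emcn, Pecam1 and Tek) and none higher. The summed signal of all 7 was 3166.8 to 4318.2 in males and 4098.6 to 4902.3 in females. Of the 7 straight proximal tubule genes, 3 were higher and 2 lower in males, with summed signals of 51267.5 to 65512.7 in males and 36264.0 to 43959.0 in females. Of the 9 convoluted ones, 2 were higher and 4 lower, with sums of 43379.0 to 52930.1 in males and 40932.2 to 55343.3 in females. The part of endothelium or proximal tubule in the Car4 difference was not tested.

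Car3 was higher in males by 0.48 ± 0.12 (adjusted p = 0.0095; 1.39-fold). The sexes were apart in normal mice on either diet and overlapped in Hyp mice on both. The second probe set gave 0.28 ± 0.14 and did not pass (adjusted p = 0.18). The fat genes Adipoq (-0.63 ± 0.16), Retn (-0.52 ± 0.09) and Fabp4 (-0.37 ± 0.10) were lower in males, and the 6 fat genes on the chips had a summed signal of 1499.7 to 2459.3 in males and 2075.8 to 3093.3 in females. Fabp4 had the highest signal of these 6 genes (median 1574.0) and weighs most in the sum. The part of fat tissue in the Car3 difference between the sexes was not tested.

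Car15 was lower in males by 0.39 ± 0.06 on the log2 scale, with values of 1346.6, 1662.85 and 2403.2 (lowest, median, highest) in males and 1577.7, 2433.7 and 2955.7 in females (adjusted p = 9.1e-05; 1.31-fold). Car8 was lower in males in all 4 combinations on average, with 119.4, 169.4 and 219.4 in males and 165.1, 219.05 and 379.9 in females (-0.45 ± 0.10; adjusted p = 0.0026). Car2 was also lower in males, with 6147.5, 7276.4 and 7984.7 against 7054.6, 8316.0 and 10114.7 in females (-0.26 ± 0.06; adjusted p = 0.0030). The Car2 call was lost with median centring (-0.17; adjusted p = 0.18), which moved the median of all features by 0.07. Red blood cells are rich in Car2, and their 2 measured markers did not pass for sex. The 4 red blood cell genes on the chips had a summed signal of 513.6 to 735.6 in males and 505.7 to 751.3 in females. Of these, Hba-a1 and Epb42 were never above the array median, and Slc25a37 had the highest signal (median 359.75). The sum is therefore a weak measure of blood. The part of blood in the Car2 difference was not tested.

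**Figure D4:**
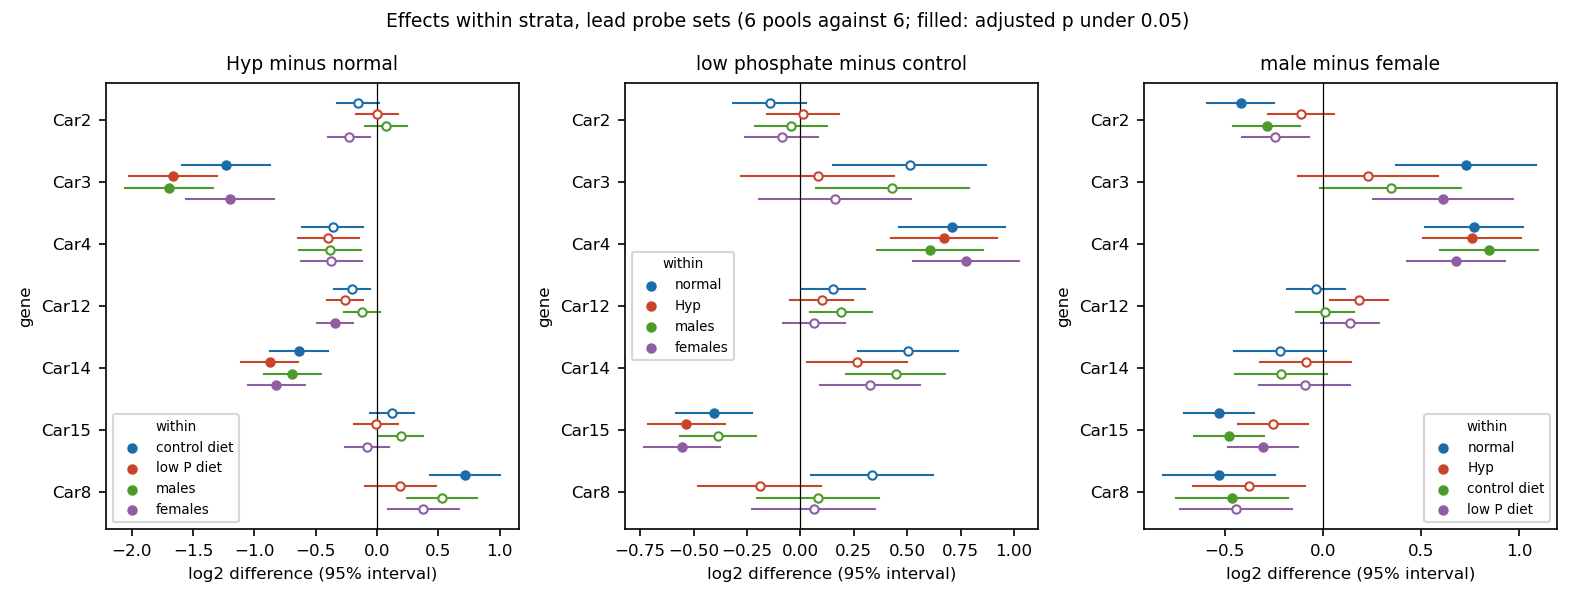
Log2 differences of the leading probe sets within strata, with 95% intervals over 6 pools on each side: genotype within each diet and sex, diet within each genotype and sex, and sex within each genotype and diet. Car3 and Car14 lay below 0 in every genotype stratum, and Car4 lay above 0 and Car15 below 0 in every diet stratum.

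Each effect was then taken within the levels of the other factors, with 6 pools a side. The genotype effect called 4 of the 12 probe sets on the control diet (0.51% of all features), 3 on low phosphate (0.663%), 3 in males (0.877%) and 4 in females (0.563%). Both Car3 probe sets and Car14 were called in each of these 4 strata. For Car3 the differences were -1.23 ± 0.17 on control, -1.67 ± 0.17 on low phosphate, -1.70 ± 0.17 in males and -1.20 ± 0.17 in females. For Car14 they were -0.64 ± 0.11, -0.88 ± 0.11, -0.69 ± 0.11 and -0.82 ± 0.11 in the same order. Car8 was called only on the control diet (0.72 ± 0.14; adjusted p = 0.014) and was 0.19 ± 0.14 on low phosphate. Car12 was called only in females (-0.34 ± 0.07; adjusted p = 0.022) and was -0.13 ± 0.07 in males. Car4 passed in no genotype stratum, with values between -0.40 and -0.36.

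The diet effect called Car4 and Car15 in normal mice (0.389% of all features), in Hyp mice (0.139%) and in females (0.196%), and Car4 alone in males (0.278%). Car4 rose by 0.71 ± 0.12 in normal and 0.67 ± 0.12 in Hyp mice, and by 0.61 ± 0.12 in males and 0.77 ± 0.12 in females. Car15 gave -0.41 ± 0.09 in normal mice, -0.53 ± 0.09 in Hyp mice, -0.55 ± 0.09 in females and -0.38 ± 0.09 in males (adjusted p = 0.075). The responses of both genes were thus present in Hyp mice. Car14 gave 0.50 ± 0.11 in normal mice (adjusted p = 0.053) and 0.27 ± 0.11 in Hyp mice (adjusted p = 0.70).

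The sex effect called 6 of the 12 probe sets in normal mice (8.01% of all features), 2 in Hyp mice (6.17%), 5 on the control diet (6.99%) and 4 on low phosphate (7.19%). Both calls in Hyp mice were Car4 probe sets. In normal mice the called genes were Car2 (-0.42 ± 0.08), Car8 (-0.53 ± 0.14), Car15 (-0.53 ± 0.09), Car3 (0.73 ± 0.17) and Car4 (0.77 ± 0.12). In Hyp mice Car2 gave -0.11 ± 0.08, Car8 -0.38 ± 0.14, Car15 -0.26 ± 0.09 and Car3 0.23 ± 0.17. Car4 differed by 0.76 ± 0.12 there, close to its value in normal mice.

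The differences between these strata were tested themselves as interactions, and no member passed. All features gave 0.0143% called for genotype by diet, 0.0499% for genotype by sex, and 0% for diet by sex and for the interaction of all 3 factors. At an unadjusted p under 0.05, limma gave 1558 of the 28044 features for genotype by diet, 1752 for genotype by sex, 1454 for diet by sex and 1113 for the 3 factors together. Among the 12 member probe sets that count was 1 for genotype by diet, 4 for genotype by sex and 0 for the other two interactions. For genotype by diet it was Car8 (-0.53 ± 0.19; adjusted p = 0.80). For genotype by sex they were Car2 (0.31 ± 0.12; adjusted p = 0.71), Car12 (0.22 ± 0.10; adjusted p = 0.79), Car15 (0.27 ± 0.12; adjusted p = 0.78) and the second Car3 probe set (-0.86 ± 0.27; adjusted p = 0.58). The leading Car3 probe set gave -0.50 ± 0.24 (adjusted p = 0.80). The differences between strata named above are therefore not shown as differences in effect.

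The order of the 8 groups differed from gene to gene. Car3 was highest in normal males on low phosphate (3248 ± 57.2, SD, n = 3) and lowest in Hyp females on low phosphate (681 ± 165), and the 4 Hyp groups overlapped each other. Car4 was also highest in normal males on low phosphate (3637 ± 329), followed without overlap by Hyp males on low phosphate (2887 ± 268) and normal males on control (2470 ± 104). Its lowest group was Hyp females on control (1072 ± 132), which overlapped normal females on control (1326 ± 319). Car14 was highest in normal females on low phosphate (2092 ± 34.0) and lowest in Hyp males on control (764 ± 62.3), both apart from their neighbours. Car15 was highest in females on control, at 2743 ± 185 in normal and 2738 ± 134 in Hyp mice, and lowest in normal males on low phosphate (1436 ± 93.8). Car2 ranged from 6570 ± 611 in normal males on low phosphate to 9670 ± 403 in normal females on control, and Car12 from 1377 ± 68.9 in Hyp females on low phosphate to 1832 ± 155 in normal females on that diet. In Car2 and Car12 every group overlapped the next in the order. Car8 was highest in Hyp females on control (288 ± 92.0) and lowest in normal males on control (123 ± 3.98), and only the lowest group was apart from its neighbour.

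Probe sets of the same gene were compared over the 24 pools as a description. The 2 Car4 probe sets had a Pearson r of 0.84 and the 2 Car3 probe sets of the 430A chip of 0.91. Probe set 1430584_s_at of Car3 had an r of 0.59 with the leading one, the Car12 pair 0.31 and the Car8 pair 0.21. The gene values of Car8 and Car12 therefore rest on 1 probe set each. Those of Car2, Car14 and Car15 do as well, since each of these genes had only 1 on the chips.

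The genes whose log2 signal was most like that of each member were listed by Pearson r over the 24 pools, again as a description of pools that share their treatments. Car3 was most like Susd2 (0.91), Pth1r (0.88) and Dnase1 (0.86). Car4 was most like Ldha (0.93), Neu1 (0.91) and Slc22a12 (0.90), and Car14 was most like Slc34a3 (0.90), Kif12 (0.84) and Slc5a2 (0.81). Slc34a3 is a sodium-phosphate cotransporter of the proximal tubule and Slc5a2 the glucose transporter of its early part. Car2 was most like Bhmt (0.84), Tigd2 (0.84) and Shmt1 (0.81), and Car15 most like Emcn (0.83), Wsb1 (0.81) and Tubb2a (0.80). Car8 was most like Pfkp (0.86), Hoxb6 (0.86) and Nsmf (0.85), and Car12 most like Nepn (0.81), Thnsl2 (0.80) and Car14 (0.80).

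The other genes of renal acid and base handling were taken from lists. Among 8 measured of 11 proton transport genes, Atp6v0d2, a subunit of the proton pump, rose in Hyp mice (0.32 ± 0.08; adjusted p = 0.049), and none passed for diet. Among 9 measured of 12 bicarbonate transporters, Slc4a1 (0.42 ± 0.09) and Slc26a4 (0.27 ± 0.06) rose in Hyp mice and none fell. On low phosphate, Slc26a4 (0.66 ± 0.06) and Slc4a9 (0.46 ± 0.08) rose and none fell. These exchangers belong to intercalated cells, in which Car2 is the known cytosolic partner. Car2 did not pass for genotype or diet in whole kidney RNA, and its signal from intercalated cells was not measured apart. For genotype, Slc4a9 gave 0.31 ± 0.08 and missed the threshold (adjusted p = 0.051).

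Among 6 measured of 7 genes of ammonia production and transport, none passed for genotype. On low phosphate Pck1 (-0.74 ± 0.09), Slc38a3 (-0.66 ± 0.08) and Glud1 (-0.47 ± 0.06), which serve glutamine uptake and its breakdown, fell, and the ammonia channel gene Rhcg rose (0.24 ± 0.05). Of the 6 measured acid-base sensing genes none passed for genotype, diet or sex. Of the 9 convoluted proximal tubule genes, Slc5a2 (-0.64 ± 0.06), Slc34a3 (-0.61 ± 0.08) and Slc34a1 (-0.30 ± 0.06) were among the 4 that fell in Hyp mice, and Slc22a8 rose (0.31 ± 0.06). Their summed signal was 48665.1 to 55343.3 in normal and 40932.2 to 50362.7 in Hyp pools. In 7 straight proximal tubule genes, 3 rose in Hyp mice (Slc5a1, Slc22a19 and Cyp7b1) and none fell. The part of these marker changes in the falls of Car3, Car4, Car12 and Car14 was not tested.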

How the data were processed

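Kidney RNA from 24 pools of 3 mice each was hybridized to both the 430A and the 430B chip (48 arrays), per the labels. The deposited values are linear signal intensities per probe set, processed in GCOS 1.2, as the submitters' processing notes name it. Summary algorithm, scaling target and genome build were not given in the sources used here. Over all arrays, the trimmed mean of the 100 probe sets on both chips, leaving out 2% at each end, was 1199.99 to 1200.01, so the arrays had been scaled before deposit. Array medians were 164.6 to 211.1 (430A) and 50.8 to 68.3 (430B).

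The 64 control probe sets of each chip were left out. Symbols came from GEO's platform annotation, updated through Entrez identifiers (34837 probe sets matched, all 15 of the 7 genes among them); 35041 probe sets had 1 symbol, 936 several and 9160 none. Signals were floored at 1 and taken as log2. Probe sets above the array median on at least 3 arrays were kept (28044). Group means were fitted per chip with limma 3.58.1 in R 4.3.3 (lmFit, eBayes), without a replicate block, and contrasts weighted the groups equally. Benjamini-Hochberg adjustment ran over both chips, with calls at 0.05, and p-values are two-sided. The fit was tested on simulated data. Each gene is led by the kept probe set of highest mean signal on the log2 scale. All member probe sets are named, with up to 4 genes per list and effect with the smallest adjusted p, and the 3 genes most correlated with each member. The members and lists were chosen with earlier results of these data known. Alternatives changed the pseudocount, filter, centring, normalization, replicate block, probe sets per gene, adjustment and eBayes prior, and left out each pool.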

Additional observations from a re-analysis of the deposited data

How the results depend on the processing

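No genotype, diet or sex effect of a leading probe set reversed under the 8 alternatives or without any 1 of the 24 pools, and no call of one was lost without a pool. Without 1 pool, the member probe sets called ranged from 6 to 7 for genotype, 3 to 4 for diet and 6 to 7 for sex, and interactions gave 0 throughout. Under the 8 alternatives they ranged from 4 to 7, 2 to 4 and 5 to 6. Calls of the 12 probe sets added up over all strata numbered 38, with 31 to 38 without 1 pool and 27 to 44 under the alternatives. The shares of all features called were 0.139% (diet in Hyp mice) to 8.01% (sex in normal mice) per stratum. The strata share pools, so these calls are not separate results. The losses were those given above: Car4 and Car12 for genotype, Car14 for diet and Car2 for sex with median centring, and Car4 for genotype and Car14 for diet with no filter. The counts over all features moved with the settings, from 338 to 633 for genotype, 120 (no filter) to 282 (trend and robust prior) for diet beside 186, and 2956 to 4553 for sex. In samples of different groups, 84 pairs with the same replicate number had correlated deviations of -0.04 to 0.09 (median 0.03), and 168 pairs with different numbers -0.09 to 0.08 (median -0.01). No pair passed 0.1, and the main fit did not pair the samples. The titles call the replicate numbers series 1 to 3 in every group, and what a series stands for is not stated. Correlations over all features cannot show that a series shared no effect. With the replicate number as a block, 6, 3 and 6 member probe sets were called for genotype, diet and sex, beside 549, 255 and 4553 of all features. Without the block, the counts over all features were 456, 186 and 4108. Signals near the array median, as for Car8, carry more background than the others. Pools of 3 mice hide the spread between animals, and the p-values measure the spread between pools.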

Other observations

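The carbonic anhydrases outside the 7 described genes were measured too. Of the 9 others, Car5b, Car7, Car9, Car10 and Car11 passed the filter, and Car1, Car5a, Car6 and Car13 were never above the array median. Car9 and Car11 exceeded it on 11 and 8 arrays, with median signals of 186.8 and 170.65. Car5b, Car7 and Car10 exceeded it on 24, 24 and 23 arrays, with median signals of 307.9, 209.45 and 132.4. None of the 5 passed for genotype or for diet. For genotype the values lay between -0.18 ± 0.12 (Car9) and 0.08 ± 0.18 (Car10), and for diet between -0.16 ± 0.12 (Car9) and 0.29 ± 0.13 (Car7). By sex, Car9, a membrane-spanning isoform known as a target of hypoxia signalling, was higher in males (0.36 ± 0.12; adjusted p = 0.040). The mitochondrial Car5b (-0.26 ± 0.08; adjusted p = 0.034) and the related, catalytically inactive Car11 (-0.44 ± 0.11; adjusted p = 0.0094) were lower in males. Car7 and Car10 did not pass for sex. Car11 had the same direction as Car8 by sex, and gave -0.06 ± 0.11 for genotype, where Car8 rose.

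Car1, Car3 and Car2 lie in a row on chromosome 3. Car3 fell in Hyp mice, while Car2 did not pass and Car1 stayed below the array median on all 24 arrays.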
